A study of Drosophila melanogaster with 40 samples.

Results

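The transcripts described here were the 150 rows with the lowest total level in *smaug*-mutant relative to wild-type embryos, summed over the polysome gradient. They were chosen from 4893 rows that passed a filter on low levels, out of 6524 rows in all. The choice used the measured values: in each gradient the linear levels of pools 1 to 4 were added, the log2 of the sum was set against that gradient's median over rows (the total level), and the rows with the most negative mean *smaug*-mutant minus mean wild-type difference were taken. The difference between the genotypes is therefore a description of how the members were picked and carries no test.

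Smaug acts in the early *Drosophila* embryo as a repressor that binds RNA. It recognises stem-loops in maternal mRNAs, represses their translation and recruits the CCR4/NOT deadenylase complex, which removes the poly(A) tail and starts decay. Embryos from mothers without Smaug are known for the persistence of maternal mRNAs that are normally cleared, and also for a failure to activate the zygotic genome fully. A polysome gradient separates mRNAs by the number of ribosomes they carry, with free mRNA at the top and mRNA on many ribosomes at the bottom.

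RNA came from whole embryos collected 0 to 2 hours after egg laying. The *smaug*-mutant group held 3 gradients of embryos from mothers homozygous for smaug1. The puromycin and cycloheximide groups held 2 gradients each, also from smaug1 embryos, and each puromycin lysate shared its extract with the cycloheximide lysate of the same number. The wild-type group held 3 gradients of w1118 embryos. Puromycin ends translation early and releases ribosomes from mRNA, whereas cycloheximide holds them in place. The lysates with neither drug named in their label were also prepared in a buffer with cycloheximide, so ribosomes were held in place there too, but they differed from the drug lysates in buffer and in having no warm incubation. Each gradient was collected as 4 pools with 1 array each, 40 arrays in all. Pool 1 was the top of the gradient with free mRNA, pool 2 was a mixture, and pools 3 and 4 held polysomes. Embryos of this age are largely syncytial, and in their pooled RNA fewer embryos or nuclei contributing a transcript and less of it in each cannot be told apart.

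The rows carry transcript identifiers without gene symbols. The annotation used here named 35 of the 6524 rows and none of the 150 members, so the members are given by identifier, their roles are not described, and planned lists of Smaug-bound, zygotic, germ plasm and ribosomal protein genes were void because too few of their genes could be matched.

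Single arrays stood apart from the others of their group. The pool 1 array of *smaug*-mutant replicate 3 was low for the members, with a median level of -3.83 relative to the gradient's median total (log2), against -1.60 and -1.99 in *smaug*-mutant replicates 1 and 2. The 3 wild-type gradients had -1.80, -0.49 and -1.21 in that pool. The pool 4 array of *smaug*-mutant replicate 2 was also low, at -3.48 against -2.39 and -2.02 in replicates 1 and 3. Much of these low levels was shared by all rows of the array. Relative to the array median the members were at -0.64 in pool 1 of replicate 3, against -0.06 and 0.245 in replicates 1 and 2. In pool 4 of replicate 2 they were at -0.455, against -0.02 and -0.23 in replicates 1 and 3. The median pool 1 difference on the gradient reference and the counts by pool of main loss are given with and without *smaug*-mutant replicate 3. Other pool 1 results, among them those of the members that lost mainly from pool 1, include it.

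The members were moderately less abundant in the mutant, and their separation was not complete. Total levels differed by -1.80 to -0.65 on the log2 scale, with a median of -0.76, which is 0.59 times the wild-type level. The other kept rows had a median of 0.02. Only 14 members fell below -1, and the set ended within a continuum, since the last members inside had differences of -0.6493 and -0.6480 and the first rows outside had -0.6479 and -0.6470.

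**Figure D1:**
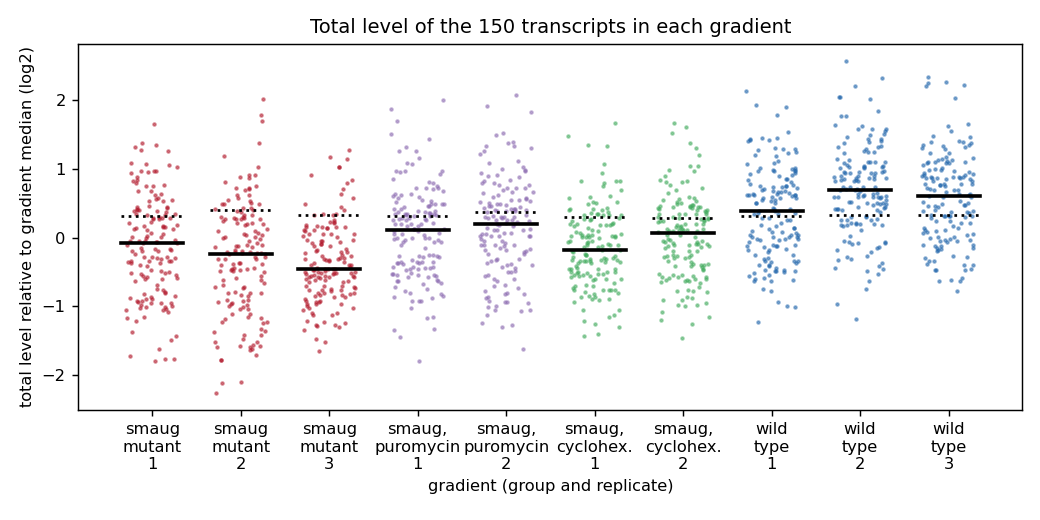
Total level of each of the 150 transcripts (points) in the 10 gradients, as log2 relative to the gradient's median over rows; solid bars are the members' medians and dotted bars the medians of the other kept rows. The members' medians lie between -0.46 and -0.08 in the *smaug*-mutant gradients, between -0.18 and 0.20 in the drug-treated *smaug* gradients and between 0.39 and 0.69 in wild type, and the point clouds overlap.

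The members' median total level was -0.08, -0.24 and -0.46 in *smaug*-mutant replicates 1, 2 and 3, against 0.39, 0.69 and 0.61 in wild-type replicates 1, 2 and 3. The other kept rows lay between 0.29 and 0.40 in each of the 10 gradients. The members as a set were thus slightly above the bulk of transcripts in wild type and below it in the mutant. Their means over gradients were -0.26 ± 0.19 in *smaug*-mutant and 0.56 ± 0.16 in wild-type embryos (SD of the gradient medians, n = 3 each).

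In 86 of the 150 members the highest of the 3 *smaug*-mutant gradients was lower than the lowest of the 3 wild-type gradients, while 5.09% of the kept rows had this pattern. In pairs of the same replicate number, 134 members were lower in the mutant in all 3 pairs and the other 16 in 2 of them, against 17.9% of kept rows with all 3 pairs lower. Both counts follow from the way the members were chosen. The pairs were not alike in size: the median difference was -0.42 in pair 1, -0.98 in pair 2 and -0.93 in pair 3.

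The spread within a genotype was of the same order as the differences. The within-genotype SD of a member's total level had a median of 0.41, against 0.37 for the other kept rows. The difference was larger than 1 such SD for 142 members and larger than 2 for 69. These counts follow in part from the choice of members, and the shares over all kept rows are not given. *smaug*-mutant replicate 3 was the lowest mutant gradient for 69 members, replicate 2 for 44 and replicate 1 for 37, and wild-type replicate 2 was the highest wild-type gradient for 73. Dye differed between gradients: within Cy5 the median difference was -0.80, with 134 members lower in the mutant (53.0% of the other kept rows), and within Cy3 it was -0.69, with 131 lower (44.1%). Cy5 held *smaug*-mutant replicate 1 and wild-type replicates 2 and 3. Cy3 held *smaug*-mutant replicates 2 and 3 and wild-type replicate 1. Each of these differences thus rested on a lone gradient of 1 genotype, and the ranking had used all of these gradients.

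The members' mean level over the 40 arrays had a median of 12.07 on the log2 scale, against 12.29 for the other kept rows. The 40 arrays include the untreated mutant arrays, where the choice itself makes the members low, and the wild-type arrays, where it makes them high. The drug-treated arrays had no part in the ranking. In the wild-type gradients the members' median total was above that of the other kept rows. When the kept rows were cut into 4 equal groups by that mean, 55 members were in the lowest group, 37 and 43 in the middle groups and 15 in the highest.

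The transcript with the largest loss was FBtr0077378. Its total level was -0.88, -1.48 and -1.12 in *smaug*-mutant replicates 1, 2 and 3, against 0.64, 0.95 and 0.31 in wild-type replicates 1, 2 and 3, a difference of -1.80 or 0.29 times the wild-type level. The puromycin gradients had -1.03 and -1.30 and the cycloheximide gradients -0.79 and -1.15. Every one of the 7 *smaug* gradients was therefore below every wild-type gradient for this transcript.

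FBtr0077378 was lower in each pool of the mutant, and most so at the bottom of the gradient. In pool 4 its level relative to the gradient's median total was -2.81, -3.05 and -2.59 in the 3 *smaug*-mutant gradients, against -0.41, 0.02 and -0.74 in the wild-type gradients. In pool 3 it averaged -2.62 ± 0.27 in *smaug*-mutant and -1.22 ± 0.20 in wild-type gradients (SD, n = 3 each). Neither polysomal pool overlapped between the genotypes. In pool 1 the groups overlapped, at -2.18, -4.08 and -4.51 in the mutant and -1.66, -1.48 and -2.50 in wild type. Pool 4 held 57.4% of the linear loss, pool 3 23.8% and pool 1 15.7%. Its translation index (TI), the mean log2 level of pools 3 and 4 minus that of pool 1, averaged 0.87 ± 1.39 in *smaug*-mutant and 1.08 ± 0.33 in wild-type embryos, a difference smaller than the spread.

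The transcript with the next largest loss was FBtr0084009. Its total level was -0.95, -0.67 and -0.61 in the *smaug*-mutant gradients, against 0.25, 1.23 and 1.17 in the wild-type gradients, a difference of -1.63. The cycloheximide gradients, at -0.45 and -0.11, were below wild type as well, whereas puromycin replicate 2, at 0.30, was above the lowest wild-type gradient and puromycin replicate 1 had -0.54. By pool it averaged -2.41 ± 0.36 in *smaug*-mutant and -0.61 ± 0.60 in wild-type gradients in pool 4, without overlap. Its pool 1 level varied widely within each genotype, at -4.16, -3.01 and -6.02 in the mutant and -3.35, -0.34 and -1.73 in wild type. Its loss was spread over all the pools, with 25.0%, 15.9%, 21.2% and 37.9% in pools 1 to 4.

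**Figure D2:**
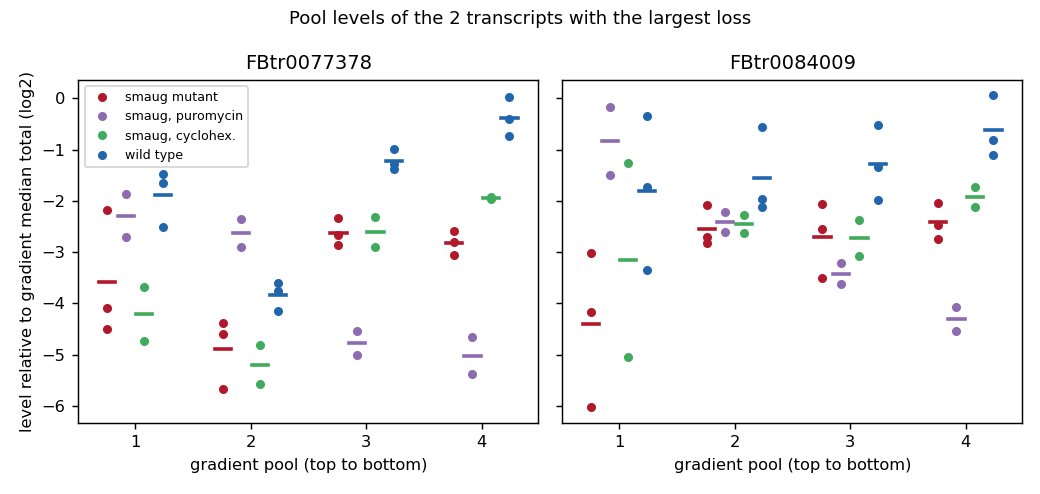
Level of FBtr0077378 and FBtr0084009 in pools 1 to 4, as log2 relative to the gradient's median total; each point is 1 array, bars are group means, and colours are the groups (3 *smaug*-mutant, 2 puromycin, 2 cycloheximide and 3 wild-type gradients). In pool 4 the *smaug*-mutant points of FBtr0077378 lie between -3.05 and -2.59 and those of wild type between -0.74 and 0.02, whereas in pool 1 the genotypes overlap.

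The members' difference in each pool depended on the reference, but their gap to the other kept rows did not. A change of reference shifts all rows of a pool alike. The gap was smallest in pool 2 and similar in pools 1, 3 and 4. Measured against the gradient's median total, which keeps differences in the amount of mRNA between pools, the loss lay at both ends of the gradient. From pool 1 to pool 4 the median *smaug*-mutant minus wild-type differences were -1.46, -0.06, -0.19 and -1.34. The other kept rows had medians of -0.64, 0.34, 0.72 and -0.42 in the same pools, so they too were lower in the mutant at the ends and higher in the middle. Pools 1 and 4 had 149 members each with a negative difference, pool 2 had 86 and pool 3 had 89. The other kept rows were negative at 82.9%, 20.6%, 15.3% and 73.6% from pool 1 to pool 4, so a negative value at the ends of the gradient was common to most rows.

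Measured against the median of each array, which removes the shift shared by all rows of a pool, the depletion was present in every pool and weakest in pool 2. From pool 1 to pool 4 the members' median differences were -0.92, -0.40, -0.88 and -0.98, against values between -0.10 and 0.03 for the other kept rows. On this reference 107 members were lower in all 4 pools, 38 in 3 and 5 in 2, and 8.52% of the other kept rows were lower in all 4.

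**Figure D3:**
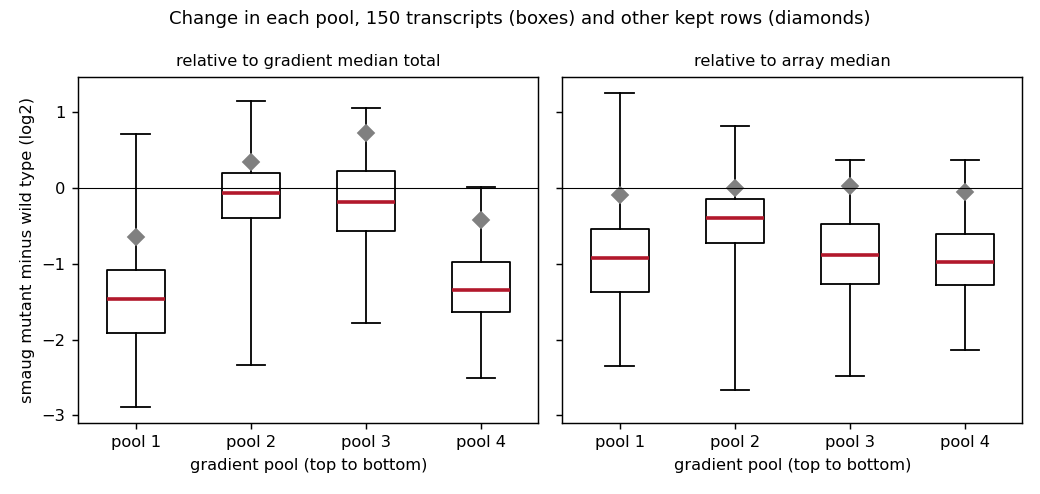
*smaug*-mutant minus wild-type difference of the 150 transcripts in each pool (boxes with the median in red, whiskers to the lowest and highest member), on the log2 scale, and the median of the other kept rows (diamonds). With the gradient reference on the left the members' medians are -1.46, -0.06, -0.19 and -1.34 in pools 1 to 4, and with the array reference on the right they are -0.92, -0.40, -0.88 and -0.98.

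Separation of the genotypes was clearest in pool 4. With the gradient reference the 3 mutant arrays were all lower than the 3 wild-type arrays for 98 members in pool 4 (14.7% of kept rows). Pool 1 had 31 such members (7.4%), pool 3 had 21 (1.43%) and pool 2 had 4 (0.593%). With the array reference pool 4 had 87 (14.9%), pool 3 had 71 (12%), pool 1 had 36 (8.11%) and pool 2 had 26 (4.13%). Pool 1 thus had a median loss as large as that of pool 4 but fewer members whose arrays did not overlap. On the gradient reference the loss in pool 1 leaned on *smaug*-mutant replicate 3, without which its median was -0.69. The low pool 1 level of that gradient was in large part shared by all rows. The same value is not given for the array reference or the other kept rows. The pool 4 median was -0.91 without *smaug*-mutant replicate 2, its smallest loss with 1 gradient left out. Pools 2 and 3 changed sign with 1 gradient: the pool 2 median was 0.18 without *smaug*-mutant replicate 3 and 0.28 without wild-type replicate 3, and the pool 3 median was 0.03 without wild-type replicate 1.

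On the linear scale and the gradient reference the lost mRNA came mainly from the ends of the gradient. The other kept rows were also lower in the mutant there, and their shares are not given. On the array reference the members' median log2 difference in pool 3, -0.88, was near that in pool 4, -0.98. The largest part of the loss fell on pool 1 for 76 members, on pool 4 for 64, on pool 3 for 8 and on pool 2 for 2. From pool 1 to pool 4 the median shares of the loss were 44.4%, 2.96%, 6.04% and 38.3%, and 63 members gained in pool 2 and 53 in pool 3 while losing overall. Without *smaug*-mutant replicate 3 the counts from pool 1 to pool 4 were 47, 1, 12 and 90. When the pool with the most negative log2 difference on the array reference was taken instead, they were 51, 7, 42 and 50, and pool 3 was then nearly as frequent as pools 1 and 4.

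Members that lost mainly from pool 1 and members that lost mainly from pool 4 also differed in where their mRNA lay. The 76 members of pool 1 had 29.6 ± 14.8% of their summed level in pool 1 in *smaug*-mutant and 41.9 ± 15.6% in wild-type embryos (SD of gradient medians, n = 3 each). The 64 members of pool 4 had 23.8 ± 12.0% in pool 4 in *smaug*-mutant and 40.02 ± 9.38% in wild-type embryos. This follows in part from the split, since a transcript can lose most where it has most. In the cycloheximide gradients, which the split did not use, the 76 had TI values of -0.38 and -1.67 (medians in replicates 1 and 2) and the 64 had 0.92 and -1.19, so the order of the subsets was the same in each gradient. Their total losses were alike, with medians of -0.75 and -0.77.

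The TI of the members as a whole did not separate the genotypes. Its median was -0.83, -0.84 and 1.99 in the *smaug*-mutant gradients, against 0.44, -1.22 and -0.44 in the wild-type gradients. The other kept rows had -0.49, -0.02 and 1.92 in *smaug*-mutant and 0.12, -0.87 and -0.38 in wild-type gradients. The high value of *smaug*-mutant replicate 3 was shared by the other kept rows and came with its low pool 1.

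The drug-treated gradients carry the same mutant genotype and did not enter the ranking of members, although their arrays were part of the mean behind the filter on low levels, and a difference from wild type shares the 3 wild-type gradients with that choice and is given without a test. These lysates also differed from wild type in buffer and incubation, which cannot be told apart from the genotype here. In cycloheximide the members' median total level was -0.18 and 0.06, and in puromycin 0.11 and 0.20, against 0.39, 0.69 and 0.61 in wild type. The means of these medians, 0.15 in puromycin and -0.06 in cycloheximide, lay between that of the untreated mutant and that of wild type, but cycloheximide replicate 1 was within the range of the untreated mutant. The median cycloheximide minus wild-type difference was -0.63, with 144 of 150 members below 0. The other kept rows had a median of -0.02, with 52.0% below 0. The median puromycin minus wild-type difference was -0.42, with 129 members below 0, against 0.04 in the other kept rows, with 45.9% below 0.

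Both cycloheximide gradients were below all wild-type gradients for 92 members (17.8% of kept rows) and both puromycin gradients for 64 (14.2%). All 7 *smaug* gradients were below all wild-type gradients for 45 members, which 2.51% of kept rows also were. Set against the untreated mutant, the members were higher by a median of 0.40 in puromycin and 0.19 in cycloheximide, and the other kept rows differed by 0.02 and -0.04. The lower level was therefore smaller in the gradients that had no part in ranking the members.

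The pools of the cycloheximide gradients were compared with wild type in the same way. On the array reference the median cycloheximide minus wild-type differences from pool 1 to pool 4 were -0.18, -0.28, -0.82 and -0.94, with the other kept rows between -0.05 and 0.04. On the gradient reference they were -0.47, -0.16, -0.68 and -0.76, against -0.26, 0.12, 0.10 and 0.15 in the other kept rows. Pools 3 and 4 had the larger differences on both references. Set against the other kept rows, the deficit in pool 1 was smaller than in pools 3 and 4 on both. In puromycin, where polysomes are released, the medians from pool 1 to pool 4 were -0.36, -0.29, -0.12 and -0.67 on the array reference, with 0.14, 0.10, -0.02 and -0.20 in the other kept rows. On the gradient reference they were 0.53, 0.47, -1.04 and -3.01, with 1.04, 0.87, -0.94 and -2.54 in the other kept rows, so the sign in pools 1 and 2 turned with the reference while the members stayed below the other rows on both.

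The comparison of puromycin with cycloheximide is independent of the ranking and was tested with limma over all 6524 rows, with Benjamini-Hochberg adjustment and a threshold of 0.05. It asks whether the mRNA of the members in the lower pools was held there by ribosomes. The TI of 102 of the 150 members fell with puromycin and that of none rose, while 80.3% of all rows fell and 0.0153% rose. The other 48 did not pass the threshold, though all 150 had negative values. The members' median change was -2.44, against -3.17 in the other kept rows and -2.997 over all rows. Relative to each gradient's median TI, 9 members were higher and 1 lower after puromycin, where 2.48% of all rows were higher and 7.48% lower.

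**Figure D4:**
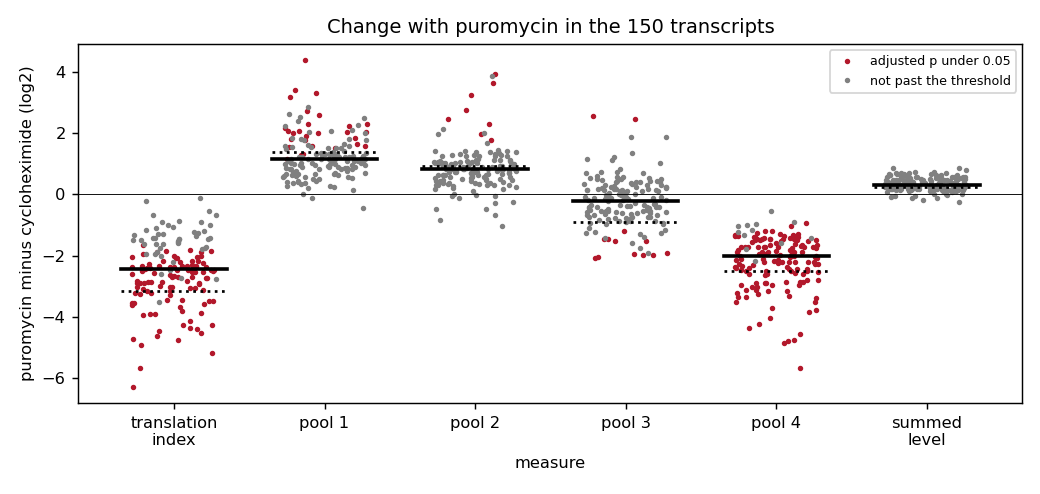
Puromycin minus cycloheximide change of each of the 150 transcripts on the log2 scale, for the translation index, the 4 pools and the summed level; red points passed an adjusted p of 0.05 in limma, solid bars are the members' medians and dotted bars those of the other kept rows. Of the members, 102 passed for the translation index and 138 for pool 4, both with lower values in puromycin, and none for the summed level.

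The largest TI changes were those of FBtr0100394 and FBtr0080639, and both took in single low arrays described with the pools below. The TI of FBtr0100394 was -3.98 and -2.62 in puromycin, against 4.86 and 1.12 in cycloheximide, a change of -6.29 (SE 1.21, limma adjusted p = 0.00412). FBtr0080639 had -4.56 and -3.96 in puromycin, against 2.44 and 0.40 in cycloheximide, a change of -5.69 (SE 0.84, limma adjusted p = 0.00190). Neither transcript's values overlapped between the drugs. With each gradient centred on its median the change of FBtr0100394 was -3.27 and did not pass (limma adjusted p = 0.0845), and that of FBtr0080639 was -2.66 (limma adjusted p = 0.0432). Both had lost most from pool 4 in the untreated mutant, by -2.18 and -1.23 on the gradient reference.

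Of the pools, pool 4 had the largest median change, and the share of members that fell was near that of all rows. In it 138 members fell and none rose, while 92.8% of all rows fell and 0.092% rose. The members' median change was -2.03, against -2.51 in the other kept rows and -2.52 over all rows. FBtr0100394 had log2 levels of 5.50 and 9.97 in pool 4 with puromycin, against 13.59 and 13.26 with cycloheximide, a change of -5.69 (limma adjusted p = 0.00162). For FBtr0080639 the levels were 6.77 and 8.88 with puromycin, against 12.65 and 12.69 with cycloheximide, a change of -4.85 (limma adjusted p = 0.000191). With each array centred on its median, 31 members were higher and 11 lower in pool 4, where 11.1% of all rows were higher and 19% lower. The changes of FBtr0100394 and FBtr0080639 were then -3.35 and -2.51, both past the threshold. Without array centring and without puromycin replicate 1, which held the levels of 5.50 and 6.77, they were -3.45 and -3.79. Those levels were far below the filter on mean level, which was at 11.16.

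Pool 3 had the median change closest to 0 and members past the threshold in both directions. There 11 members fell, where 26.2% of all rows fell, and 2 rose, where 0.261% rose. The members' median change was -0.21, against -0.90 in the other kept rows and -0.80 over all rows, and with each array centred on its median 48 members were higher and 4 lower, where 14.3% of all rows were higher and 17.1% lower. The members that rose were FBtr0074082, by 2.55 (limma adjusted p = 0.00482), and FBtr0079545, by 2.47 (limma adjusted p = 0.00267). FBtr0079545 had pool 3 levels of 13.84 and 14.48 with puromycin, against 11.97 and 11.41 with cycloheximide. The largest falls were those of FBtr0084745 (-2.08, limma adjusted p = 0.00580) and FBtr0077450 (-2.05, limma adjusted p = 0.00255), which were -1.20 and -1.17 after array centring. These rises and falls did not hold as calls when either cycloheximide gradient was left out, with a lone gradient remaining.

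Toward the top of the gradient the members that passed had higher levels with puromycin, but their share was below that of all rows. In pool 1, 28 members rose and none fell, while 37.2% of all rows rose and 0.0153% fell. With the replicate block 67 members rose, where 52.5% of all rows rose. The members' median change was 1.16, against 1.39 in the other kept rows and 1.27 over all rows. FBtr0100394 had pool 1 levels of 12.55 and 14.03 with puromycin, against 7.18 and 10.64 with cycloheximide (change 4.39, limma adjusted p = 0.0247), and FBtr0079545 had 13.75 and 13.93, against 10.46 and 10.40 (change 3.42, limma adjusted p = 0.000603). With each array centred on its median 2 members were higher and 10 lower, where 10.4% of all rows were higher and 5.21% lower, and with pool 1 fitted alone no member or other row passed. The call for FBtr0100394 was lost with array centring, with the pool fitted alone, without puromycin replicate 2 and without cycloheximide replicate 1 (limma adjusted p = 0.0731, 0.112, 0.0779 and 0.491), and that for FBtr0079545 with the pool fitted alone and without cycloheximide replicate 1 (limma adjusted p = 0.0662 and 0.0558). In pool 2, 8 members rose and none fell, while 15.3% of all rows rose and 4.66% fell. With the replicate block 14 rose, where 23.7% of all rows rose, and array centring gave 9 higher and 8 lower, where 13.8% of all rows were higher and 15.3% lower. The median change there was 0.84, against 0.92 in the other kept rows and 0.83 over all rows.

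The largest rises in pool 2 were those of FBtr0079545 and FBtr0075851. FBtr0079545 had 14.76 and 15.64 with puromycin, against 11.08 and 11.45 with cycloheximide, a change of 3.93 (limma adjusted p = 0.00122). FBtr0075851 had 12.47 and 14.42 with puromycin, against 9.61 and 10.01 with cycloheximide, a change of 3.63 (limma adjusted p = 0.00853). FBtr0079545 thus rose in each of pools 1 to 3 and fell in pool 4, where its level changed by -3.24 (limma adjusted p = 0.000188). The pool 2 calls for FBtr0079545 and FBtr0075851 did not hold when either cycloheximide gradient was left out, with a lone gradient remaining. Without cycloheximide replicates 1 and 2 in turn, FBtr0079545 changed by 3.75 and 4.12 in pool 2 and by 2.76 and 2.19 in pool 3.

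The summed level over the 4 pools did not pass the threshold for any member or any row in limma. At an unadjusted p under 0.05, 86 of the 6524 rows were higher and 10 lower, and no member was among them. The members' median change was 0.33, against 0.23 in the other kept rows and 0.18 over all rows, with a median SE of 0.45. Without puromycin replicate 1, 9 members were called higher, where 6.82% of all rows were. Calls in single pools rested on few arrays, and leaving out 1 gradient changed how many members, and how many of all rows, passed. For the TI, 31 members passed without puromycin replicate 1 and 20 without puromycin replicate 2, where 39% and 38.3% of all rows passed.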

How the data were processed

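RNA of 40 gradient pools was hybridised to custom NimbleGen arrays, with 1 dye per sample. The authors deposited log2 levels per transcript, made by RMA quantile normalisation followed by a linear transformation of each array fitted to Arabidopsis spike-in RNAs. The log base was taken as 2 because RMA gives log2. Tool versions and genome build were not given in the sources used here. The deposited values hold no read counts, so the number of arrays limits the precision. The spike-in step leaves differences in overall level between pools in the values, so pool results were given relative to the gradient's median total and relative to each array's median.

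Rows with a mean over the 40 arrays at or above its 25th percentile (11.16 on the log2 scale) were kept. The members were the 150 kept rows with the most negative difference in total level. Transcripts were named from RefSeq where an identifier matched. Where unnamed, the rule was to name the 2 members with the largest loss and, for each puromycin comparison, up to 2 members in each direction past the threshold. The members, lists and rules were chosen with earlier results of these data known.

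Puromycin and cycloheximide were compared with limma 3.58.1 in R 4.3.3 on all 6524 rows: TI and summed level with 1 value per gradient, pools in 1 model of 8 groups with the spread shared over pools, without the replicate block. The fits were also run on simulated data, whose outcome is not given here. For the TI and the summed level, p-values measure the spread between gradients, which the labels call biological replicates. For single pools they measure the spread between arrays of the same pool and drug, shared over pools. The pools of a gradient were taken there as independent. Neither fit used the pairing of same-numbered drug gradients.

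Same-numbered puromycin and cycloheximide gradients came from 1 split lysate, and their deviations from the group means correlated at 0.22 over rows. For the genotypes the correlations were 0.80, 0.55 and 0.39 in pairs 1, 2 and 3, so the numbers were taken to pair the gradients. Alternatives covered the filter, the way pools were summed, array scale, normalisation, dye, the block, the reference and leaving out each gradient. Counts of the pool of main loss under other settings were added after seeing the data.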

Additional observations from a re-analysis of the deposited data

How the results depend on the processing

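The choice of members depended on the processing. Of members chosen anew, 55 were shared with the 150 without the filter (median difference -0.98), 83 with a filter at the 50th percentile and 91 with the mean of the log2 levels. Leaving out 1 gradient kept 77 to 104, with 77, 94 and 90 without *smaug*-mutant replicates 1, 2 and 3 and 87 without wild-type replicate 2. The replicate block could not change the members' median total difference of -0.76, since each replicate number held 1 gradient of each genotype. Leaving out 1 gradient gave pool 2 medians of -0.46 to 0.28 and pool 3 medians of -0.50 to 0.03, with 0.18 in pool 2 without *smaug*-mutant replicate 3 and 0.025 in pool 3 without wild-type replicate 1; the array reference gave -0.88 in pool 3. Main loss lay in pools 1 and 2 for 47 and 1 members without *smaug*-mutant replicate 3, and in pools 2 and 3 for 7 and 42 on the array reference.

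For puromycin minus cycloheximide, centring gave 10 members for the TI (9 higher, 1 lower, with 9.96% of all rows called) and 12, 17, 52 and 42 in pools 1 to 4 (15.6%, 29.1%, 31.4% and 30.1% of all rows), of which 2, 9, 48 and 31 were higher. All 10 gradients in 1 fit gave 42 for the TI, all lower (57.4%). Each pool fitted alone gave 0, 13 (higher) and 64 (16 higher, 48 lower) in pools 1 to 3 (0%, 27.9% and 63.3%). The replicate block gave 67 in pool 1 and 14 in pool 2, all higher (52.5% and 29.7% of all rows called), and changed no other count by over 1.5 times. Leaving out 1 gradient gave 20 to 142 for the TI, 0 to 9 for the summed level (9 without puromycin replicate 1), and 0 to 59, 0 to 45, 0 to 12 and 86 to 121 in pools 1 to 4; pool 2 had 45 without puromycin replicate 1, pool 1 had 59 without cycloheximide replicate 2, and pool 4 had 90 without puromycin replicate 1 and 86 without cycloheximide replicate 1. A lone gradient was then assumed to vary like the others. The cause of these changes was not tested.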
